A study of Mus musculus with 4 samples.

Results

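Toll-like receptors sense microbial molecules, and 9 genes of their pathway were followed here in developing CD4 T cells: the receptor genes Tlr1, Tlr2, Tlr4, Tlr6 and Tlr7, the co-receptor genes Ly96 and Cd14, the adaptor gene Myd88 and the kinase gene Irak1. All 9 were found among the 19938 genes with a probe set that names 1 gene, and each had 1 such probe set. Tlr1 and Ly96 were selected on their opposite differences between the thymocyte stages in these same arrays, and the others were added as relatives and partners of the pathway. Stage values of the 9 genes are therefore given as a description with no test.

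The samples were CD4+ CD8- thymocytes of 8-week-old C57BL/6n mice, sorted from thymi pooled within a genotype, with 1 Affymetrix Mouse Gene 1.0 ST array for each of 4 groups. By the labels, the miR-142-/- pool came from 4 mice, 1 female and 3 males. The WT pool (miR-142+/+) was labelled as 5 mice, 3 females and 2 males. Each pool gave a later CD69- Qa2+ and an earlier CD69+ Qa2- population, so that the groups were miR-142-/- Qa2+, miR-142-/- Qa2-, WT Qa2+ and WT Qa2- cells. CD8+ cells had first been depleted on magnetic beads in every group, and the cell type from which miR-142 was lost is not given in the labels used here. For 1 sample the labels disagree: the title and sorting entry say miR-142-/- Qa2-, which was followed, and the description says Qa2+.

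In the textbook scheme, Tlr2 pairs with Tlr1 or Tlr6 at the cell surface to bind bacterial lipopeptides, and Tlr4 binds lipopolysaccharide through Ly96 (MD-2) after Cd14 has handed the ligand over. Tlr7 sits in endosomes and senses single-stranded RNA. Tlr1, Tlr2, Tlr6, Tlr7 and Tlr4 signal through the adaptor Myd88, which gathers Irak kinases and leads to NF-kB and MAP kinase activation, and Myd88 serves the receptors for interleukin-1 and interleukin-18 in the same way. The pathway is best known in macrophages, dendritic cells and B cells, and some of its receptors are also expressed by T cells.

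The gene removed in the mutant mice, Mir142, makes 2 mature microRNAs from 1 hairpin on chromosome 11. Their sequences (RefSeq, GRCm38.p6, plus strand, chr11:87756867-87756887 for the 5p and chr11:87756903-87756925 for the 3p product) are shown because they define the genotype, with the seed, bases 2 to 8, in capitals:
mmu-miR-142a-5p: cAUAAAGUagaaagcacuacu
mmu-miR-142a-3p: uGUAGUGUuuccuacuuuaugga

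Of the 9 genes, 5 have an annotated start in the RefSeq promoter table used here (Tlr1, Tlr2, Tlr6, Myd88 and Irak1). Entries for Tlr4, Tlr7, Ly96 and Cd14 were not used here. The 250 bases before the start that lies farthest upstream in the table are shown for Tlr1 and Tlr6, neighbours on chromosome 5 that both read higher in Qa2+ cells, and for the shared adaptor Myd88. They are written 5′ to 3′ on the minus strand of GRCm38.p6, at chr5:64933559-64933808 for Tlr1, chr5:64960049-64960298 for Tlr6 and chr9:119340019-119340268 for Myd88. Capitals mark matches, on either strand, to 5 short motifs: an ETS core (GGAAGT), a KLF core (CACCC), AP-1 (TGACTCA), the first 9 letters of an NF-kB site (GGGNNNTTC) and an interferon regulatory factor core (GAAANNGAA):
Tlr1: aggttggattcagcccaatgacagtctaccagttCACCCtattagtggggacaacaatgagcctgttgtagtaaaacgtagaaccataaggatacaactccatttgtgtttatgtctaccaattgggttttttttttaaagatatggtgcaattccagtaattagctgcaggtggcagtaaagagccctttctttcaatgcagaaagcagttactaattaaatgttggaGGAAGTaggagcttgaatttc
Tlr6: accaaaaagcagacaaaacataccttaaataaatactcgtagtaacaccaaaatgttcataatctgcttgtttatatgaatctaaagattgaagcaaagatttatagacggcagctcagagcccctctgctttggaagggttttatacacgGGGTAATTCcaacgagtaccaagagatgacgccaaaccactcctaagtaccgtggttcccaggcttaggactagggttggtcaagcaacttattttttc
Myd88: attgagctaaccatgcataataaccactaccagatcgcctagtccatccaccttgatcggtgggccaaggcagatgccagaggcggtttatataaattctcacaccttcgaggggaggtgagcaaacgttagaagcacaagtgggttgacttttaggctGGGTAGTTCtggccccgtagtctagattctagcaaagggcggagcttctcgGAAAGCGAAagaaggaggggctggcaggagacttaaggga

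The Tlr1 stretch held 1 ETS and 1 KLF match, the Tlr6 stretch 1 NF-kB match, and the Myd88 stretch 1 NF-kB and 1 IRF match. Of the stretches not shown, that of Irak1 held 1 ETS match, and that of Tlr2 held 1 ETS and 2 NF-kB matches, of which the ETS match overlapped an NF-kB match. Of 32851 annotated starts, 19.7% had an ETS match, 52.0% a KLF match, 4.46% an AP-1 match, 11.8% an NF-kB match and 7.13% an IRF match in the same window. These matches describe letters only.

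Values are log2 expression values, and a difference of 1 is a doubling. A gene counted as above background when its mean over the 4 arrays was over log2 5.87, a level that 95% of 1194 olfactory and vomeronasal receptor genes stay under and 12591 genes exceeded. Thymocytes are not known to use those receptors. Array medians ranged from 6.61 to 6.74, and correlations across probe sets between arrays from 0.982 to 0.991. With 1 array per group there was no replicate check on any difference, and precision is limited by how few arrays there are. As a yardstick of scatter at low signal, which is not the spread between mice, the standard deviation over these odorant and pheromone receptors was 0.21 for the stage difference in miR-142-/- cells, 0.22 for that in WT cells, 0.18 for the genotype difference in Qa2+ cells and 0.15 for that in Qa2- cells. Mir142 itself read 4.88 and 5.29 in miR-142-/- Qa2+ and Qa2- cells, below background, and 9.41 and 10.11 in WT Qa2+ and Qa2- cells. Cd4 lay between 12.36 and 12.64 and Cd3e between 12.75 and 12.92 on the 4 arrays. Xist, transcribed from the inactive X chromosome of females, read 4.83 and 5.06 in miR-142-/- and 12.14 and 12.67 in WT cells. The Y-linked gene Eif2s3y read 10.58 and 10.55 in miR-142-/- and 4.39 and 4.29 in WT cells, and Kdm5d and Uty were likewise above background on the miR-142-/- arrays alone, although both pools were labelled as holding both sexes. In every genotype difference below, those of the 9 genes included, genotype and sex cannot be told apart.

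Above background were 6 of the 9 genes: Tlr1, Tlr2, Tlr7, Ly96, Myd88 and Irak1. Tlr4, Tlr6 and Cd14 were below it. In both genotypes Tlr1 was higher and Ly96 lower at the Qa2+ than at the Qa2- stage, the pattern for which they were picked. In Qa2+ cells Tlr1, Tlr7 and Ly96 were each lower in miR-142-/- than in WT cells, by 2.27-fold, 1.90-fold and 3.35-fold. In Qa2- cells the differences of the same 3 genes were smaller in size, and only Ly96 reached 1.5-fold there, at 1.52-fold lower.

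**Figure D1:**
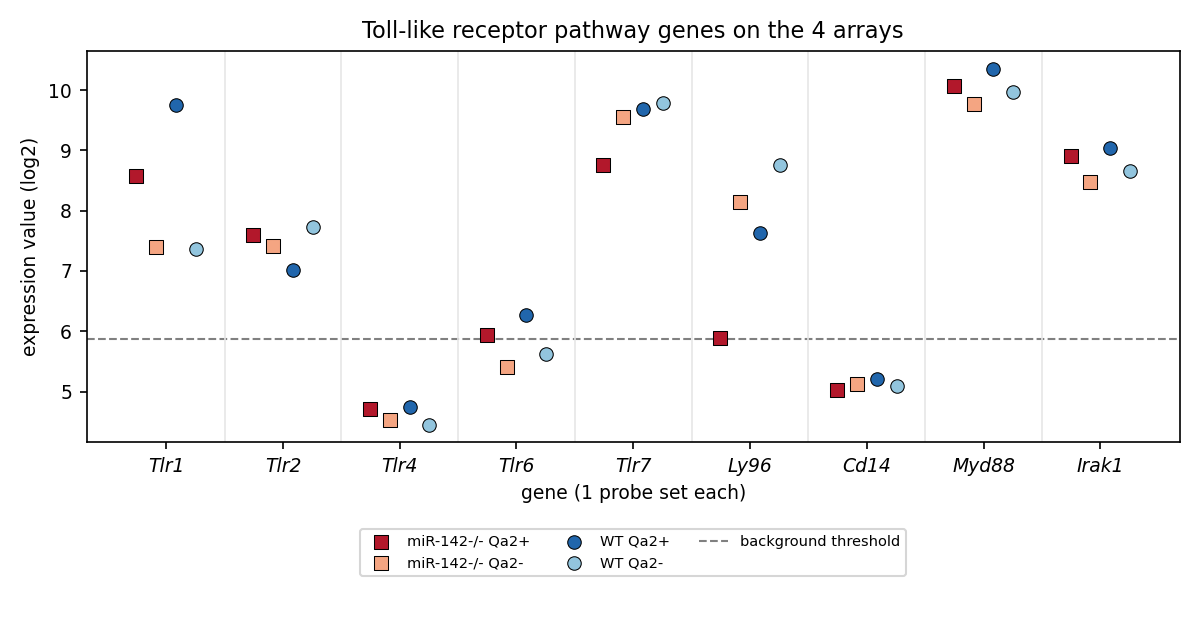
Log2 expression value (vertical axis) of the 9 genes (horizontal axis) on each of the 4 arrays, 1 point per array, with the background threshold of 5.87 as a dashed line. Tlr1 spreads from 7.36 to 9.76 and Ly96 from 5.88 to 8.75, while all 4 points of Tlr4 and of Cd14 lie under the line.

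Tlr1, the partner of Tlr2 for triacylated lipopeptides, read 8.58 in miR-142-/- Qa2+, 7.40 in miR-142-/- Qa2-, 9.76 in WT Qa2+ and 7.36 in WT Qa2- cells. The Qa2- arrays of the genotypes were close to each other, and the WT Qa2+ array was the highest of the 4. Between stages, Tlr1 was 2.26-fold higher in Qa2+ than in Qa2- cells of miR-142-/- and 5.27-fold higher in those of WT, log2 differences of 1.18 and 2.40. Between genotypes, the difference was -1.18 in Qa2+ cells and 0.04 in Qa2- cells. The stage difference was 1.22 larger in WT than in miR-142-/- cells, with no replicate to test it.

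Tlr6, which joins Tlr2 for diacylated lipopeptides, averaged 0.06 below the threshold, and 2 of its 4 arrays were above it. It read 5.93 in miR-142-/- Qa2+, 5.40 in miR-142-/- Qa2-, 6.27 in WT Qa2+ and 5.62 in WT Qa2- cells. The Qa2+ array was the brighter in each genotype, and measured against the threshold Tlr6 was at least 1.05-fold higher in Qa2+ cells of miR-142-/- and at least 1.32-fold higher in those of WT. Within Qa2+ cells it was 1.26-fold lower in miR-142-/- than in WT. The genes Tlr1 and Tlr6 are close paralogs, and probes that bind both transcripts cannot be told apart here.

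Tlr2, the shared partner of both, read 7.60 in miR-142-/- Qa2+, 7.41 in miR-142-/- Qa2-, 7.02 in WT Qa2+ and 7.72 in WT Qa2- cells. Its lowest array was WT Qa2+, where Tlr1 and Tlr6 had their highest value. The stage difference was 0.19 in miR-142-/- cells and -0.70 in WT cells, so that in WT the Qa2+ array was 1.63-fold below the Qa2- array. Tlr2 was 1.49-fold higher in miR-142-/- than in WT cells at the Qa2+ stage, and 1.24-fold lower at the Qa2- stage.

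The genes of the lipopolysaccharide receptor differed from each other in whether they were detected at all. Tlr4 lay between 4.45 and 4.74 on the 4 arrays and Cd14, which delivers the ligand, between 5.02 and 5.21, all below background. Ly96, whose protein binds lipopolysaccharide and holds it against Tlr4, was above background on all 4 arrays, at 5.88 in miR-142-/- Qa2+, 8.15 in miR-142-/- Qa2-, 7.63 in WT Qa2+ and 8.75 in WT Qa2- cells. Its miR-142-/- Qa2+ value was the lowest and exceeded the threshold by 0.02.

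Ly96 stood 4.80-fold lower in miR-142-/- Qa2+ than in miR-142-/- Qa2- cells and 2.18-fold lower in WT Qa2+ than in WT Qa2- cells, log2 differences of -2.26 and -1.13. Against WT, miR-142-/- cells were lower by 3.35-fold in Qa2+ and by 1.52-fold in Qa2- cells, log2 differences of -1.74 and -0.61. With the threshold at the 99th percentile of the receptor genes (6.75), the miR-142-/- Qa2+ value lay under it, and the folds that rest on that array became at least 2.64-fold for stage and at least 1.84-fold for genotype. The stage difference of Ly96 was 1.14 more negative in miR-142-/- than in WT cells, also without a replicate.

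Tlr7, the endosomal receptor for single-stranded RNA, read 8.75 in miR-142-/- Qa2+, 9.55 in miR-142-/- Qa2-, 9.68 in WT Qa2+ and 9.78 in WT Qa2- cells. A single array, miR-142-/- Qa2+, stood below the other 3. Within miR-142-/-, Tlr7 stood 1.74-fold lower at the Qa2+ stage, while within WT the stage difference was -0.11, and -0.0038 with the arrays centred on their medians. The genotype difference was -0.92 in Qa2+ and -0.23 in Qa2- cells. Tlr7 is X-linked. The 342 X-linked genes above background had a median genotype difference of 0.03 at the Qa2+ and -0.01 at the Qa2- stage, with 18 higher and 18 lower by 1.5-fold or more in Qa2+ cells, and 7 higher and 15 lower in Qa2- cells.

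Myd88, the adaptor, read 10.06 in miR-142-/- Qa2+, 9.76 in miR-142-/- Qa2-, 10.36 in WT Qa2+ and 9.97 in WT Qa2- cells. Irak1, the kinase that Myd88 recruits and the other X-linked gene of the 9, read 8.91 in miR-142-/- Qa2+, 8.47 in miR-142-/- Qa2-, 9.04 in WT Qa2+ and 8.65 in WT Qa2- cells. Both genes were higher in Qa2+ cells of each genotype by less than 1.5-fold: Myd88 by 0.30 in miR-142-/- and 0.39 in WT, and Irak1 by 0.44 in miR-142-/- and 0.39 in WT. Both were lower in miR-142-/- than in WT cells by less than 1.5-fold, with Myd88 differing by -0.30 in Qa2+ and -0.20 in Qa2- cells and Irak1 by -0.13 in Qa2+ and -0.18 in Qa2- cells. The Irak1 difference in Qa2+ cells was smaller than the scatter of 0.18 given above.

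**Figure D2:**
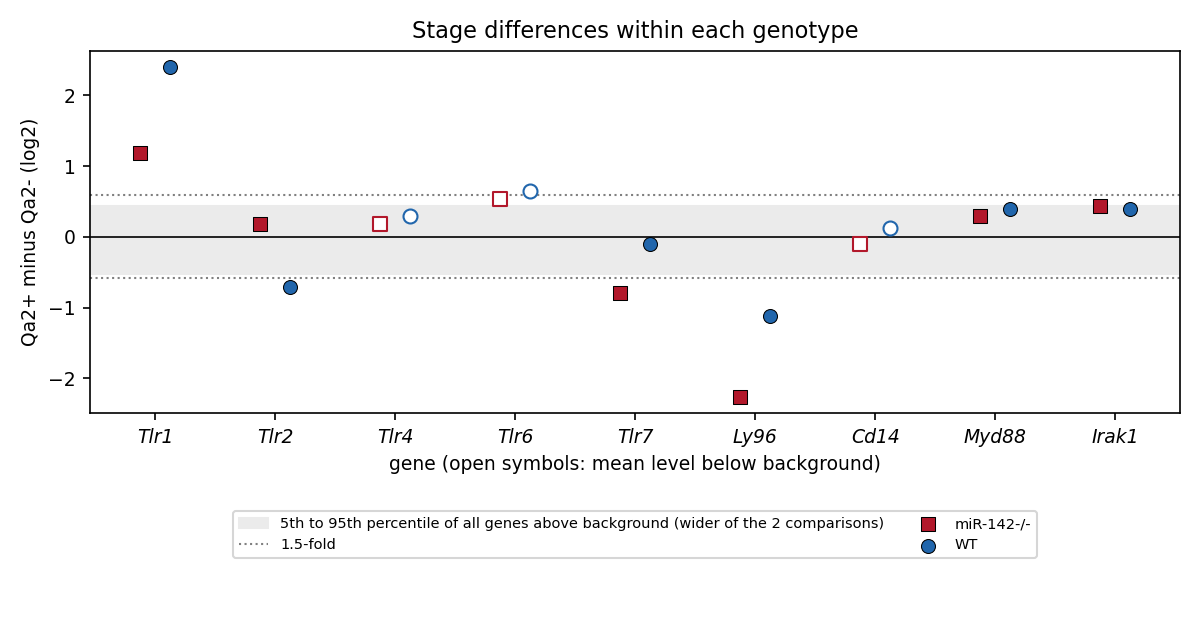
Stage difference, Qa2+ minus Qa2- on the log2 scale (vertical axis), of each of the 9 genes in miR-142-/- (squares) and WT (circles), 1 array per group, with open symbols for genes below background. The grey band spans the 5th to 95th percentile of all genes above background. Tlr1 lies above it at 1.18 and 2.40, Ly96 below it at -2.26 and -1.13, and Myd88 and Irak1 lie at 0.30 to 0.44 in both genotypes. Tlr7 in miR-142-/-, at -0.80, and Tlr2 in WT, at -0.70, also lie below the band. The open symbols of Tlr6, at 0.53 and 0.65, lie above it.

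Of the 6 genes above background, 1 stood higher by 1.5-fold or more and 2 lower in miR-142-/- Qa2+ cells (Tlr1 against Ly96 and Tlr7). Over all 12591 genes above background these shares were 2.65% and 3.64%. In WT, 1 was higher and 2 were lower (Tlr1 against Ly96 and Tlr2), beside 2.69% and 3.69% of all genes. Since the stage contrast chose 2 of the genes, nothing is read from these counts. The median stage difference of the 6 genes was 0.24 in miR-142-/- and 0.14 in WT cells, where all genes had medians of -0.06 in each.

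Between genotypes, 3 of the 6 genes were at least 1.5-fold lower and 0 higher in miR-142-/- Qa2+ cells, beside 4.88% of all genes lower and 4.56% higher. In Qa2- cells 1 of the 6 was lower and 0 were higher, beside 3.74% and 3.11% of all genes. The 6 genes had a median genotype difference of -0.61 at the Qa2+ stage and -0.22 at the Qa2- stage. Tlr1 and Ly96 are among the 3 lower genes, and they were picked on stage differences that use these same Qa2+ arrays. The 9 genes were chosen with earlier results of these arrays known, and both stages of a genotype came from 1 pool. These counts and medians therefore carry no p-value, and nothing is read from them.

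**Figure D3:**
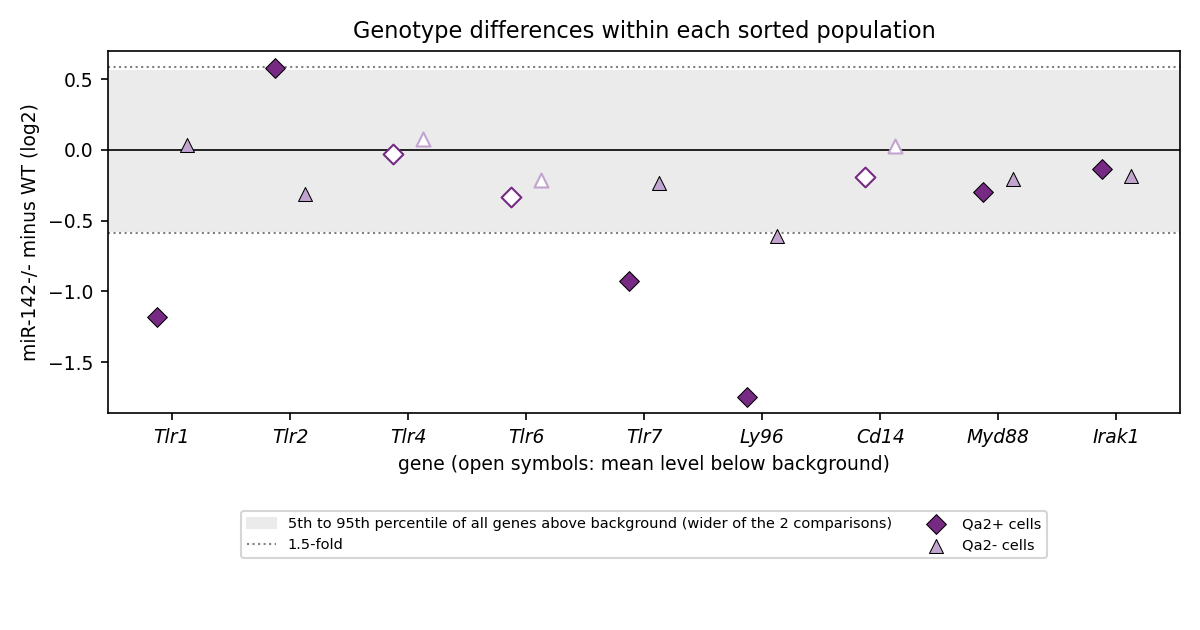
Genotype difference, miR-142-/- minus WT on the log2 scale (vertical axis), of each of the 9 genes in Qa2+ cells (diamonds) and Qa2- cells (triangles), 1 array per group, with open symbols for genes below background. Ly96 at -1.74, Tlr1 at -1.18 and Tlr7 at -0.92 lie below the grey band of the 5th to 95th percentile of all genes in Qa2+ cells, and in Qa2- cells Ly96 lies at -0.61. Tlr2 in Qa2+ cells, at 0.58, lies just above the band.

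Markers of other cells were read on the same arrays, because macrophages, dendritic cells and B cells use these receptors, and in sorted bulk samples fewer cells of a type and less RNA per cell cannot be told apart. Of 15 macrophage and monocyte markers 14 were measured, and 8, 6, 8 and 5 were above 5.87 in miR-142-/- Qa2+, miR-142-/- Qa2-, WT Qa2+ and WT Qa2- cells. Their summed level was log2 9.90, 9.83, 10.24 and 9.81 in the same order. The defining genes Csf1r, Adgre1, Fcgr1 and Mertk were below 5.87 on all 4 arrays. Cd68, C1qb, Lyz1, Itgam and Cebpa of the same list were above it on all 4. Of these, Cd68, C1qb and Lyz1 were highest in WT Qa2+ cells, at 8.13, 6.99 and 6.70. Itgam was highest in WT Qa2- cells at 6.34, and Cebpa in miR-142-/- Qa2+ cells at 6.42. Lyz2, the lysozyme gene of macrophages and granulocytes, read 6.67 in miR-142-/- Qa2+, 5.98 in miR-142-/- Qa2-, 7.48 in WT Qa2+ and 5.87 in WT Qa2- cells, the same order of the Qa2+ arrays as for Tlr1. The part of such cells in the Tlr1 values was not tested.

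Among 11 dendritic cell markers the summed level was log2 10.21 and 10.65 in miR-142-/- Qa2+ and Qa2- cells and 10.21 and 10.48 in WT Qa2+ and Qa2- cells. Of these markers, 5, 5, 5 and 3 were above 5.87 in the same order of arrays. Cd74, the invariant chain gene, read 8.66 and 9.74 in miR-142-/- Qa2+ and Qa2- cells and 8.25 and 9.30 in WT Qa2+ and Qa2- cells, lower at the Qa2+ stage. Cd74 is the brightest gene of the list in Qa2- cells and makes up much of the summed level, so the fall of that level is not a separate observation. The class II genes H2-Aa and H2-Ab1, named after their values were seen, differed the other way between stages, by 0.69 and 0.45 in miR-142-/- and 0.95 and 0.38 in WT. Bst2, another bright gene of the list, differed by -0.03 in miR-142-/- and 0.13 in WT. Flt3, Clec9a and Xcr1 were below 5.87 on all 4 arrays, and Siglech, a marker of plasmacytoid cells, read 5.84 to 6.17. Zbtb46, a factor of dendritic cells, was above 5.87 on 3 arrays. It read 5.99 and 6.10 in miR-142-/- and 5.83 and 6.22 in WT Qa2+ and Qa2- cells, highest in WT Qa2- cells as Ly96 was. Itgax was above 5.87 in WT Qa2+ cells alone, at 5.92. Of 8 measured B cell markers, Cd79a, Ms4a1, Pax5 and Ebf1 were below 5.87 on all 4 arrays, and the list's summed level was log2 8.67 and 8.50 in miR-142-/- Qa2+ and Qa2- cells and 8.85 and 8.62 in WT Qa2+ and Qa2- cells, with 2, 2, 2 and 1 above 5.87. Cd79b was above 5.87 on all 4 arrays, at 7.25 and 6.88 in miR-142-/- and 7.70 and 7.36 in WT Qa2+ and Qa2- cells. Blk was above it on 3 arrays, at up to 6.07. Among 8 neutrophil markers S100a8, Ltf and Ngp were below 5.87 on all 4 arrays, and the summed level was log2 8.89 and 8.54 in miR-142-/- Qa2+ and Qa2- cells and 8.68 and 8.51 in WT Qa2+ and Qa2- cells, with 2, 3, 3 and 2 above 5.87. Elane, Mpo and Camp were each above 5.87 on 3 arrays, at up to 6.57, 6.50 and 6.17. The 5 measured erythroid and stromal markers summed to between log2 8.71 and 8.89.

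Other T cell subsets also differed between the arrays. The 12 effector, innate-like and regulatory T cell markers summed to log2 12.12 and 11.62 in miR-142-/- Qa2+ and Qa2- cells and 12.83 and 12.69 in WT Qa2+ and Qa2- cells. The miR-142-/- arrays were lower by 1.5-fold or more for 8 of them at the Qa2+ and 10 at the Qa2- stage, beside 4.88% and 3.74% of all genes, and higher for 0 at the Qa2+ stage and 1, Eomes, at the Qa2- stage. Among the 8 is Gzmb, whose miR-142-/- Qa2+ value lay under 5.87, so that it was at least 1.11-fold lower there. Foxp3, the factor that defines regulatory T cells, read 8.69 and 7.01 in miR-142-/- Qa2+ and Qa2- cells and 10.36 and 8.21 in WT Qa2+ and Qa2- cells, higher in Qa2+ cells of both genotypes as Tlr1 was. Gzmb, a cytotoxic granule protease gene, read 5.43 and 5.62 in miR-142-/- and 6.02 and 8.88 in WT Qa2+ and Qa2- cells. The chemokine receptor gene Cxcr6 read 6.07 and 6.21 in miR-142-/- and 7.37 and 8.56 in WT Qa2+ and Qa2- cells. Ly96 shares with both the highest value in WT Qa2- cells. Within miR-142-/- the likeness ends: the stage difference was -2.26 for Ly96, -0.14 for Cxcr6 and -0.19 for Gzmb, whose values there are below background. Of the same list, Tbx21, Nkg7, Klrd1 and Cd44 were also highest in WT Qa2- cells. Zbtb16, Il2rb, Foxp3 and Ctla4 were highest in WT Qa2+ cells, and Il2ra and Eomes on a miR-142-/- array. The 8 double-positive thymocyte and CD8 markers summed to log2 11.35 and 10.73 in miR-142-/- Qa2+ and Qa2- cells and 11.44 and 10.80 in WT Qa2+ and Qa2- cells. Rag1, Dntt, Arpp21 and Aqp11 were higher by 1.5-fold or more in Qa2+ cells of both genotypes. Their stage differences were 1.90, 1.60, 0.79 and 0.77 in miR-142-/- and 2.715, 0.99, 1.79 and 1.13 in WT. Rag1 was highest in WT Qa2+ cells, as Tlr1 was, and Dntt, Arpp21 and Aqp11 in miR-142-/- Qa2+ cells. Ptcra, Cd8a and Cd8b1 differed by 0.36, -0.08 and -0.49 in miR-142-/- and 0.64, -0.06 and 0.01 in WT. Rag2 was below 5.87 on every array. The part of these subsets in the values of Tlr1 and Ly96 was not tested.

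The genes with the profile nearest to Tlr1 over the 4 arrays, by Euclidean distance between log2 values centred on each gene's mean among 12590 other genes, were the transcribed pseudogene Gm4956 (distance 0.43), the sialyltransferase gene St8sia6 (0.61) and S1pr4, a receptor for sphingosine-1-phosphate (0.65). Their stage differences were 1.29 for Gm4956, 1.57 for St8sia6 and 1.32 for S1pr4 in miR-142-/-, and in WT those of Gm4956 and St8sia6 were 1.81 and 1.63. Nearest to Ly96 were Cks1b, a cofactor of cyclin-dependent kinases (0.63), Igsf23 (0.73) and Lad1 (0.74). Cks1b differed between stages by -1.54 in miR-142-/- and -0.79 in WT, and between genotypes by -1.28 in Qa2+ and -0.53 in Qa2- cells. With 4 points such likeness is a description.

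**Figure D4:**
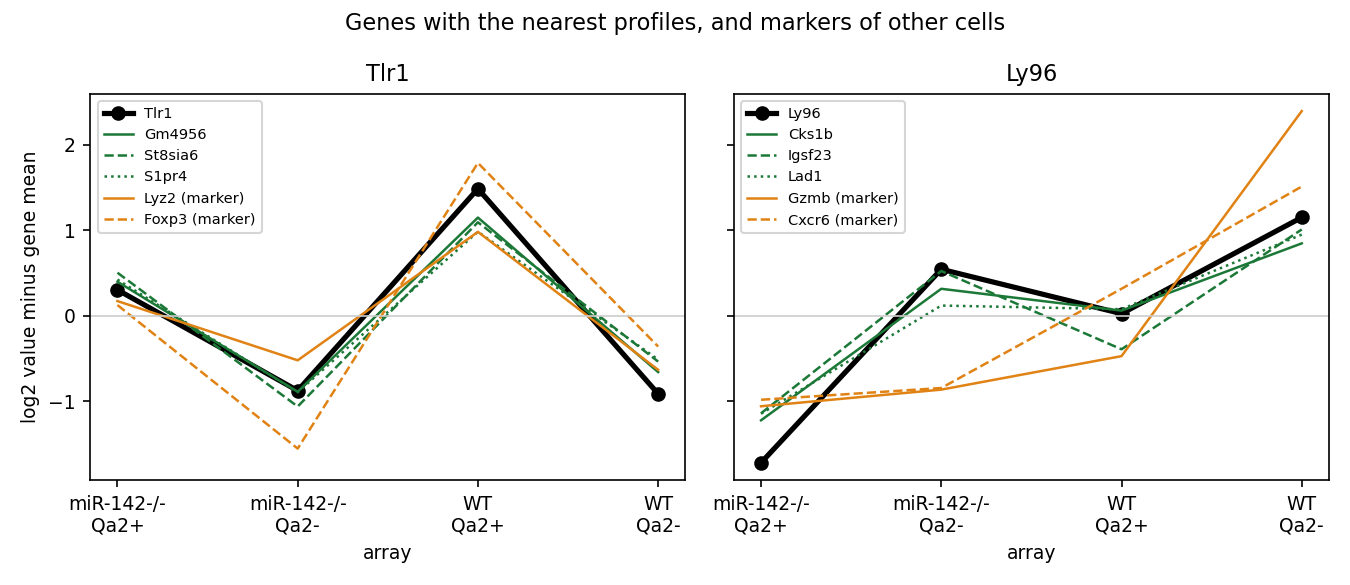
Log2 value minus the gene's mean (vertical axis) on the 4 arrays (horizontal axis) for Tlr1 (left) and Ly96 (right) in black, the 3 nearest genes in green and markers of other cells, picked after their values were seen, in orange. Lines join the points of 1 gene and mark no order. Tlr1, Gm4956, St8sia6, S1pr4, Lyz2 and Foxp3 are all highest in WT Qa2+ cells, and Ly96, Gzmb and Cxcr6 are highest in WT Qa2- cells.

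The rest of the pathway was read from 8 lists that together hold 102 genes outside the 9. Of these, 93 were measured and 72 were above background, and 9 were not analysed here (Tlr5, Tlr11, Irak4, Traf3, Ripk1, Chuk, Nfkb1, Il1r1 and Il1rl1). For the mean stage difference of both genotypes, limma was fitted across all 12591 genes, with genotype as a block and Benjamini-Hochberg adjustment at 0.05. Of the 72 genes, 9 rose and 1 fell in Qa2+ cells, where 4.77% of all genes rose and 8.35% fell. The 2 stage pairs are 1 miR-142-/- and 1 WT pool of mice and leave 1 residual degree of freedom. That residual is the gap between a gene's stage differences in the 2 genotypes. Standard errors and p-values therefore do not measure the spread between mice of a genotype. The p-values rest mostly on the spread pooled over all genes, and without the genotype block no gene of the 12591 passed (1544 had an unadjusted limma p under 0.05).

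At least 1.5-fold apart between stages, 7 of the 72 genes were higher and 0 lower in miR-142-/- (9.72% and 0%, with a list median of 0.01), and 6 were higher and 2 lower in WT (8.33% and 2.78%, median 0.03). Of the 2 lower in WT, Ube2n, read from the brighter of its 2 probe sets, was measured above background in both populations. Ccl3, above background on the miR-142-/- Qa2+ array alone, was below it in both WT populations. With the arrays centred on their medians, which raised the median WT stage difference of all genes to 0.04 against -0.06 as deposited, 11 were higher and 2 lower in WT. Both genotypes shared 3 of the higher genes, Ctss, Jun and Il18r1. Between genotypes, 5 were higher and 7 lower in Qa2+ cells (6.94% and 9.72%, median -0.11), and 0 were higher and 3 lower in Qa2- cells (0% and 4.17%, median -0.04). Ccl5 was the single gene at least 1.5-fold lower in both populations. These shares stand beside the shares of all genes given above, and no difference from them was tested.

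Among the other Toll-like receptors and their relatives, Tlr3, Tlr8 and Tlr13 were below 5.87 on all 4 arrays, between 4.39 and 4.73. Tlr9, the endosomal receptor for unmethylated DNA, read 6.07 and 6.40 in miR-142-/- Qa2+ and Qa2- cells and 5.85 and 5.98 in WT Qa2+ and Qa2- cells, of which the WT Qa2+ value is below the threshold. Tlr12, a mouse receptor for parasite profilin, read 7.35 and 6.72 in miR-142-/- Qa2+ and Qa2- cells and 6.33 and 6.48 in WT Qa2+ and Qa2- cells. It was 2.03-fold higher in miR-142-/- than in WT cells at the Qa2+ stage and 1.18-fold higher at the Qa2- stage. Ly86, a relative of Ly96 that partners Cd180, averaged below background and read 5.83 and 5.60 in miR-142-/- Qa2+ and Qa2- cells and 6.41 and 5.49 in WT Qa2+ and Qa2- cells, while Cd180 was below 5.87 on all 4 arrays. Tlr9 and Tlr12, the genes of this list above background, did not pass the stage test.

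Of 12 ligand delivery and trafficking genes above background, 2 rose with stage and 0 fell. Unc93b1, which carries Tlr7 and other endosomal receptors out of the endoplasmic reticulum, read 6.90 and 5.99 in miR-142-/- Qa2+ and Qa2- cells and 6.66 and 6.10 in WT Qa2+ and Qa2- cells. It rose by 0.73 ± 0.12 (limma log2 difference ± SE, 2 pairs, adjusted p = 0.0076). Ctss, a lysosomal protease that processes endosomal receptors, read 10.51 and 9.70 in miR-142-/- and 10.67 and 9.82 in WT Qa2+ and Qa2- cells. It rose by 0.83 ± 0.10 (limma, adjusted p = 0.0027). Both were higher in Qa2+ cells while Tlr7 itself was not. The protease genes Lgmn and Ctsl differed between miR-142-/- and WT by -0.98 and 0.59 in Qa2+ cells and by -0.47 and 0.37 in Qa2- cells.

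The 4 TIR adaptor genes above background gave 0 calls in the stage test. Between genotypes in Qa2+ cells, Tirap, the bridge between Tlr2 or Tlr4 and Myd88, was 1.66-fold higher in miR-142-/- than in WT, and Ticam2, the bridge of Tlr4 to Ticam1, was 1.82-fold lower. In Qa2- cells Tirap differed by 0.24, Ticam2 read 6.26 in both genotypes, and Pik3ap1, an adaptor to PI3 kinase, was 1.57-fold lower in miR-142-/-. Ticam1, the adaptor of Tlr3 and Tlr4, differed by -0.41 in Qa2+ and -0.21 in Qa2- cells, and Sarm1 was below background. None of the 13 measured genes of the Irak, Traf and Tak1 kinase module passed the stage test. Irak2 differed between genotypes by -0.70 in Qa2+ and -0.37 in Qa2- cells. Ube2n, the ubiquitin-conjugating partner of Traf6, differed between stages by 0.03 in miR-142-/- and -0.86 in WT. Ube2n has 2 probe sets, and these values are of the one with the higher mean alone.

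Of 15 genes listed as restraints on the pathway, 4 rose with stage and 0 fell: Rnf216 by 0.50 ± 0.10, Peli1 by 0.48 ± 0.10, Peli2 by 0.45 ± 0.10 and Sigirr by 0.44 ± 0.10 (limma log2 difference ± SE, 2 pairs, adjusted p = 0.017, 0.020, 0.024 and 0.026). Sigirr, a receptor of the interleukin-1 family that blocks signalling, is named after its values were seen. Rnf216, Peli1 and Peli2 encode ubiquitin ligases, of which the Pellino pair is also known to promote signalling in some cells, and each of the 4 was higher in Qa2+ cells of both genotypes by less than 1.5-fold. Irak3, an Irak that lacks kinase activity and slows the others, differed between stages by 0.11 in miR-142-/- and 0.62 in WT.

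Of 16 downstream transcription factor genes, 2 rose and 0 fell: Jun, an AP-1 subunit, by 0.77 ± 0.10 (limma, adjusted p = 0.0033), and Nfkbie, an NF-kB inhibitor named after its values were seen, by 0.52 ± 0.11 (limma, adjusted p = 0.020). Between genotypes in Qa2+ cells Irf7, an interferon regulator downstream of Tlr7, differed by -0.79, Fos by -0.79 and the NF-kB inhibitor gene Nfkbia by 0.73. In Qa2- cells the same 3 differed by -0.35, 0.02 and 0.51.

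Il18r1, the interleukin-18 receptor chain that signals through Myd88, rose by 1.42 ± 0.17 (limma, adjusted p = 0.0025), the largest stage difference of the 10 called genes. It read 8.61 and 6.81 in miR-142-/- Qa2+ and Qa2- cells and 9.03 and 7.99 in WT Qa2+ and Qa2- cells, 3.48-fold higher in Qa2+ cells of miR-142-/- and 2.06-fold in those of WT. In Qa2- cells it was 2.27-fold lower in miR-142-/- than in WT. The partner chain Il18rap averaged below background and read 5.61 in miR-142-/- Qa2- cells, against 6.55 in WT Qa2- cells, its single value above 5.87. It was at least 1.60-fold lower in WT Qa2+ than in WT Qa2- cells, the opposite stage direction to Il18r1. Il1rap and Il1rl2 did not pass the stage test, with stage differences of -0.12 and -0.28 in miR-142-/- and 0.08 and -0.24 in WT.

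The cytokine and inflammatory targets were mostly undetected, with 11 of 18 below background. Nos2 fell by 0.49 ± 0.10 (limma, adjusted p = 0.019), with values of 5.74 and 6.25 in miR-142-/- Qa2+ and Qa2- cells and 5.82 and 6.28 in WT Qa2+ and Qa2- cells, so both Qa2+ values lie below the threshold. The chemokine gene Ccl3 read 7.49 and 5.72 in miR-142-/- Qa2+ and Qa2- cells and 5.03 and 5.77 in WT Qa2+ and Qa2- cells, at least 3.08-fold higher in the miR-142-/- Qa2+ array than in the miR-142-/- Qa2- and the WT Qa2+ arrays. Its stage difference in WT of -0.74, counted above, lies between values that are both below background. Ccl5 was 2.24-fold lower in miR-142-/- than in WT in Qa2+ cells and 3.02-fold lower in Qa2- cells.

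**Figure D5:**
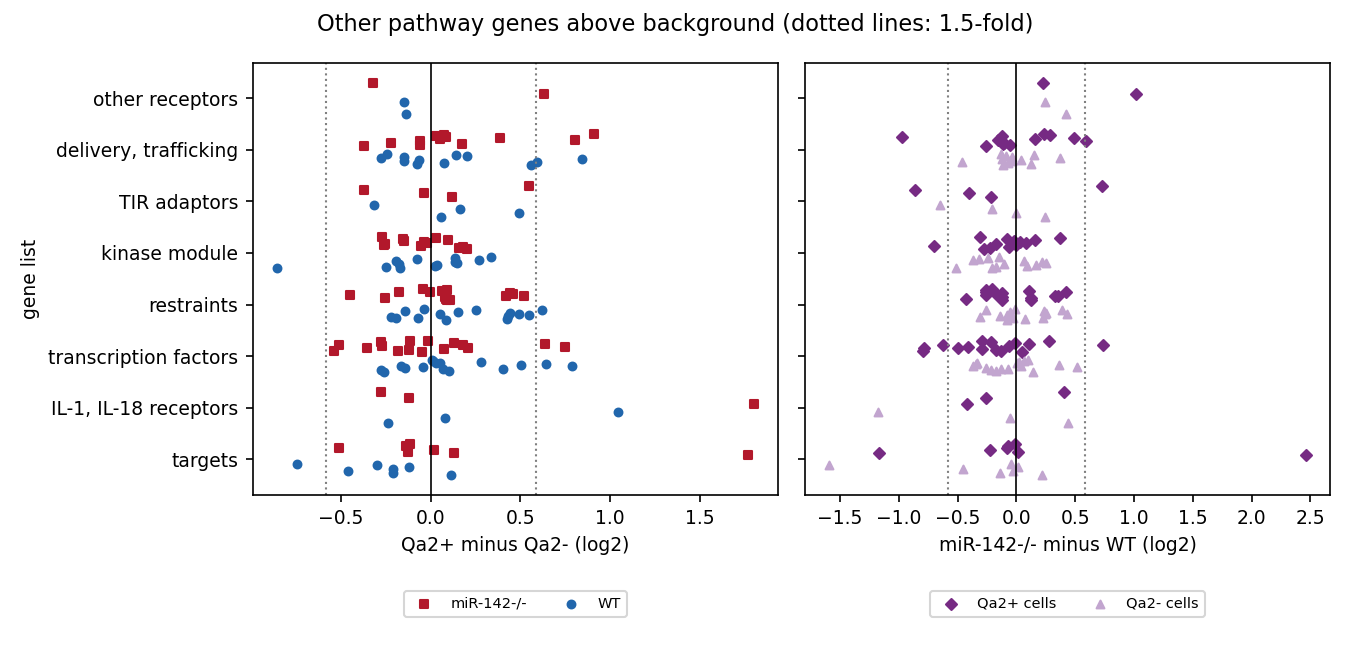
Log2 differences (horizontal axis) of the 72 other pathway genes above background in their 8 lists (vertical axis), 1 point per gene and comparison. The left panel gives Qa2+ minus Qa2- in miR-142-/- (squares) and WT (circles), the right panel miR-142-/- minus WT in Qa2+ (diamonds) and Qa2- cells (triangles), with dotted lines at 1.5-fold. Il18r1 stands at 1.80 and 1.04 on the left, and Ccl5 at -1.17 in Qa2+ and -1.59 in Qa2- cells on the right. The point farthest to the right in Qa2+ cells is Ccl3, which is set against a WT value below background and is a bound only.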

How the data were processed

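Expression was measured on 4 Affymetrix Mouse Gene 1.0 ST arrays, 1 per group, from RNA of sorted cells of pooled mice. The authors deposited 1 log2 value per probe set and array. The submitters' processing notes name Partek and RMA, whose versions are not given in the sources used here. Background correction and quantile scaling, which RMA includes, shrink differences between dim signals and remove any change common to the whole array. Every later step was computed from the deposited table.

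Of 35557 probe sets, 21789 had 1 listed gene, 1621 several and 12147 none. Entrez IDs gave current names for 21698 (GRCm38.p6 gene records). Each gene took its probe set with the highest mean. Motif matches, profile distances and 1.5-fold counts used Python (3.11.15). The stage test used limma (3.58.1, R 4.3.3) on genes above background with genotype as a block, a two-sided moderated test with a prior of 6.94 degrees of freedom, and was tested on simulated data. The 9 genes, the lists and the markers were chosen with earlier results of these data known. Named were the 9 genes, all other receptors and TIR adaptors, up to 4 genes per list with the largest differences, genes called in the stage test and 1.5-fold apart in both genotypes, the 3 nearest profiles, and defining or shared 1.5-fold markers. Alternatives covered scaling, probe sets, fold and background thresholds and the limma settings.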

Additional observations from a re-analysis of the deposited data

Results flagged for a closer look

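Some genes above background differed in opposite directions in the groups set side by side, each by more than the standard deviation of the olfactory and vomeronasal receptor genes. With 1 array per group none of these differences was tested.

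Among the 9 genes this was Tlr2 alone, whose genotype difference was 0.58 in Qa2+ and -0.31 in Qa2- cells, 0.89 apart. In the wider lists the genotype difference of Ube2n, by the brighter of its 2 probe sets, was 0.37 in Qa2+ and -0.51 in Qa2- cells, 0.89 apart. That of Peli3 was -0.26 for Qa2+ and 0.24 for Qa2- cells, which gives -0.50. The stage difference of Ticam2 was -0.37 in miR-142-/- and 0.49 in WT cells, which gives -0.86, and that of Fos was -0.54 in miR-142-/- and 0.28 in WT cells, which gives -0.82. Irf8 differed both ways, by -0.86, with stage differences of -0.36 in miR-142-/- and 0.51 in WT cells and genotype differences of -0.50 at the Qa2+ and 0.36 at the Qa2- stage. The stage difference of Ccl3 was 1.77 in miR-142-/- and -0.74 in WT cells, 2.51 apart by these numbers. Only the miR-142-/- Qa2+ array of Ccl3 was above background, so its miR-142-/- difference is a bound of at least 3.08-fold, and neither a direction in WT nor a size of the gap is read from values below background.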

How the results depend on the processing

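All 36 stage and genotype differences of the 9 genes shifted by less than the receptor-gene standard deviation under each alternative, by at most 0.10 with arrays centred on their medians and 0.11 with quantile normalization, and by none with the mean of all probe sets, since each has 1 probe set. The median stage difference of all genes in WT was 0.04 after centring and 0.02 after quantile normalization, against -0.06 as deposited. Counts in the 72 other pathway genes moved more. At 2-fold, 2 genes were higher in Qa2+ cells of miR-142-/- and 1 higher and 0 lower in those of WT, and between genotypes in Qa2+ cells 2 were higher and 1 lower. With background at the 99th percentile, 4 were higher in miR-142-/- and 1 lower in WT between stages, and 2 higher in miR-142-/- Qa2+ cells. At the 90th percentile, or with any array above background (chosen after seeing the data), 1 gene was lower between stages in miR-142-/-. Centring or quantile normalization gave 11 genes higher in Qa2+ cells of WT, against 6. In the limma stage test, no genotype block gave 0 higher and 0 lower. Genes called lower numbered 2 without the background filter, 3 with a variance trend and 2 with the mean of probe sets, against 1. The cause of these changes was not tested. Each group has a single array, so leaving out an array ends the comparisons it is in.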
